A study of Mus musculus with 20 samples.

Results

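The genes described here are 31 genes of T lineage identity and T-cell receptor (TCR) signaling, chosen by symbol from 26099 genes listed in the acute table and 26486 in the survival table. All 31 were listed in both tables and all 31 passed the filter on low values in both, among 16363 and 16136 genes tested. They were grouped by role into 4 chains of the CD3 complex, 4 proximal kinases, 4 adaptors and signal regulators, 9 surface proteins and 10 transcription factors.

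RNA came from 20 libraries of leukemic spleens, from mice with a transplanted T-cell acute lymphoblastic leukemia (T-ALL) in which Acly can be deleted by tamoxifen. Acly encodes ATP-citrate lyase, which makes cytosolic acetyl-CoA from citrate. The 4 KO acute libraries came from mice that were already overtly leukemic, were given 3 mg of tamoxifen in corn oil into the peritoneum and had their spleens taken 72 h later, and the 6 WT acute libraries from mice given corn oil alone on the same schedule. The 5 KO survival libraries came from mice given the same tamoxifen dose 48 h after transplantation and sampled at the humane endpoint, and the 5 WT survival libraries from mice given corn oil alone. All 4 groups carried the same conditional allele, so WT names a genotype without deletion induced, and tamoxifen and deletion cannot be told apart. All recipients had been irradiated below a lethal dose and injected intravenously, and spleens were pressed through a 40 μm filter with red cells lysed. Age, strain, what drives the recombinase and the number of independent leukemias are not given in the labels. Whether each library is a separate mouse is not stated either, so a p-value speaks for the spread among libraries alone.

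The TCR recognizes peptide on MHC molecules but cannot signal by itself. The CD3 chains and the zeta chain carry the signaling motifs, which the kinase LCK phosphorylates so that ZAP70 can dock and phosphorylate the scaffold LAT. Thymocytes become and stay T cells through a network of transcription factors in which TCF1, GATA3, BCL11B and E proteins such as HEB take part. T-ALL arises from immature T cells and keeps much of this program.

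Values are normalized counts deposited by the authors, scaled within each table, so levels are compared between libraries of one table and not between genes or tables. A fold change is KO over WT on the log2(normalized count + 1) scale, and a gene is called at an adjusted p under 0.05 by limma with Benjamini-Hochberg adjustment over all genes tested in that comparison. Acly itself was lower in KO libraries in both arms. It had 5226, 6228, 6402 and 4823 normalized counts in the KO acute libraries, against 7406 at the lowest, 7633 at the median and 8279.6 at the highest of the WT acute libraries (log2 fold change -0.46, SE 0.075, adjusted p = 0.00087 by limma). In the survival arm it had 4017, 2174, 3523, 3025 and 2718 normalized counts in the KO libraries, against 7922, 7758, 7396, 7544 and 8825 in the WT libraries (log2 fold change -1.38, SE 0.13, adjusted p = 0.0016 by limma). KO means were 73.3% of WT in the acute arm and 39.2% in the survival arm, and KO and WT libraries did not overlap in either.

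In the acute arm 21 of the 31 genes fell and 2 rose on the authors' scaling by limma, whereas with each library scaled to its summed TCR beta genes 1 fell (Il7r), 6 rose (Cd7, Txk, Cd1d1, Ikzf1, Lcp2 and Runx1) and 26 of 31 fold changes were positive. With TCR beta scaling 95 of all 16363 genes tested in that arm were called lower and 6991 higher. On the authors' scaling 14.7% of them were called lower and 16.7% higher. The median log2 fold change of the 31 genes was -0.26, beside -0.023 for all genes tested. TCR beta scaling moved the median of all genes to 0.34 and that of the 31 genes to 0.11, and under it the acute fold change of Acly was -0.087 (adjusted p = 0.65 by limma). For 18 of the 31 genes every KO library was lower than every WT library, and for 2 (Cd7 and Txk) every KO library was higher, against 9.94% and 12.7% of all genes tested. The 21 genes that fell were all 4 CD3 chains, 3 of 4 kinases, 1 of 4 adaptors, 6 of 9 surface proteins and 7 of 10 transcription factors. The other 8 (Lcp2, Themis, Ubash3a, Cd5, Cd1d1, Gata3, Ikzf1 and Runx1) did not pass the test.

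The labels name no sort of the spleen cells, so fewer T-lineage cells and less of these RNAs per cell cannot be told apart. Markers of other cell types moved with the KO acute group. Of 50 tested markers (52 listed in 8 lists), 37 were called higher and 0 lower by limma (42 at an unadjusted p under 0.05), and none was at 0 in every library. Summed neutrophil markers ranged from 155181 to 534920.4 normalized counts in KO acute libraries, against 10675 to 41842 in WT acute libraries, and did not overlap. Monocyte and macrophage markers ranged from 21461 to 64346 in KO against 3641 to 7075 in WT, B-cell markers from 2762 to 6272 against 1183 to 2247, and NK-cell markers from 468 to 1324 against 119.8 to 229. Plasma-cell markers ranged from 5592 to 9287 in KO against 3562 to 4363 in WT, and dendritic-cell markers from 179.5 to 371 against 76.1 to 153. Erythroid markers ranged from 6899 to 27894 in KO against 7770.1 to 16514 in WT and megakaryocyte markers from 194 to 426 against 109.8 to 269, so both overlapped. The other-cell score, the mean log2 marker level centred within the table, was 0.4605, 1.69, 1.43 and 0.790 in KO acute libraries 1 to 4, against -1.07 to -0.243 in WT acute libraries. With that score as a covariate 0 of the 31 genes and 0 of all genes were called by limma (1220 of 16363 genes at an unadjusted p under 0.05). The score did not overlap between the groups, so in that fit it and the genotype are hard to tell apart. The part of these cells in the fall of the 31 genes was not tested further.

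The libraries of the KO acute group differed among themselves. The median deviation of the 31 genes from the WT acute mean was -0.13, -0.40, -0.26 and -0.24 (log2) in KO acute libraries 1 to 4, against -0.023 to 0.014 in WT acute libraries. KO library 2, with the highest other-cell score, was the lowest KO library for 19 of the 21 genes that fell, and KO library 1, with the lowest score, the highest for 19 of the 21. The summed TCR beta genes (24 genes) were 47517, 35982, 38897 and 47895 in KO acute libraries 1 to 4, against 48637 at the lowest, 55520.3 at the median and 57137 at the highest of the WT acute libraries. The KO mean of that sum was 77.9% of WT, a log2 difference of -0.37, and the groups did not overlap. The summed level of the 31 genes ranged from 217577 to 280169 in KO acute libraries, against 296589.9 to 306524 in WT acute libraries. Without KO acute libraries 2 and 3, the 2 highest in the score, 11 genes were still lower and 2 higher by limma. These were Cd3d, Cd3g, Lck, Zap70, Fyn, Lat, Cd2, Cd27, Thy1, Il7r and Tcf12, with Cd7 and Txk. Of all 16363 genes tested, 723 were called lower and 1414 higher in that fit.

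**Figure D1:**
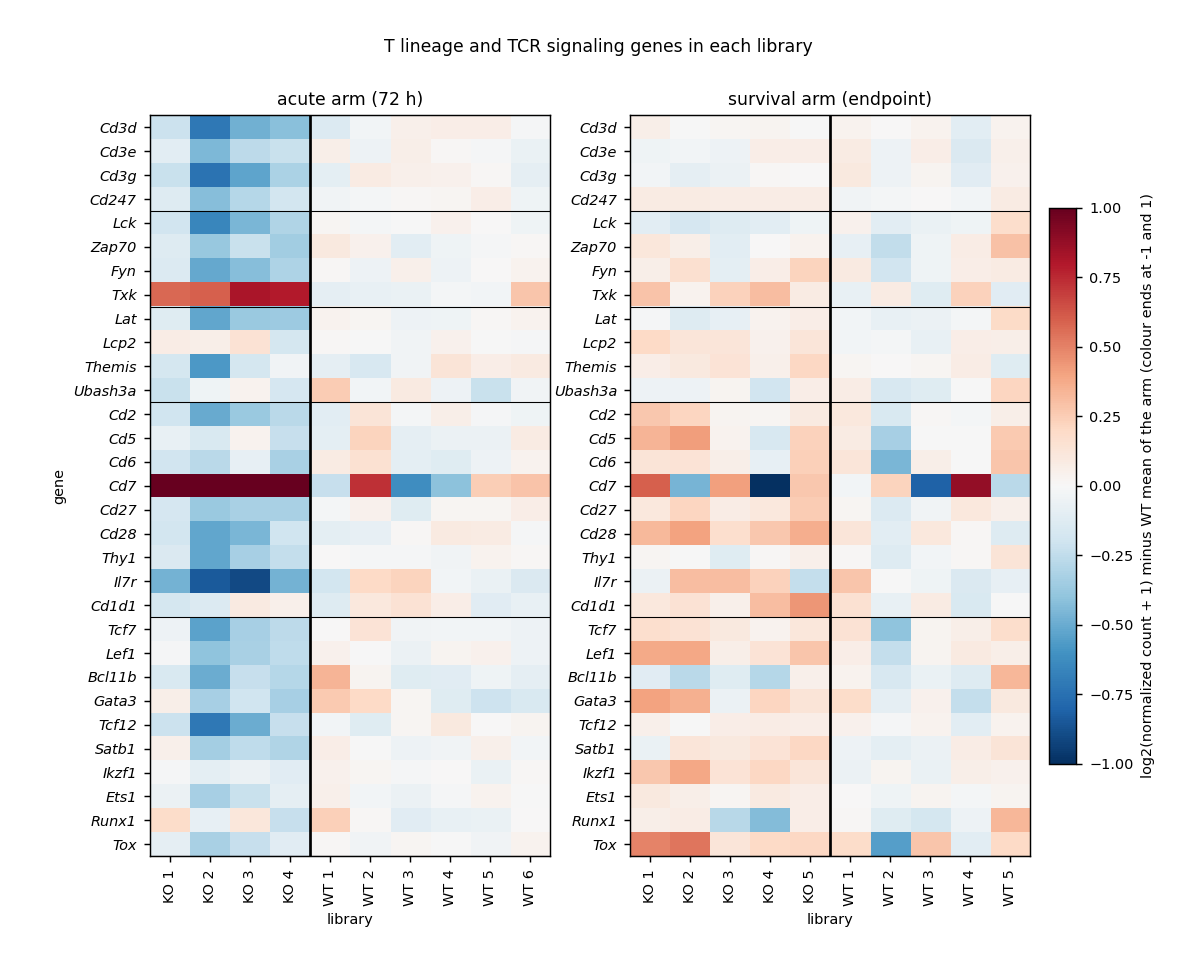
Log2(normalized count + 1) of each of the 31 genes (down the page, by role) in each library (across), minus the WT mean of the same arm, for the acute arm (left) and the survival arm (right), with colours ending at -1 and 1. On the authors' scaling the 4 KO acute libraries are mostly blue, deepest in KO library 2, with Cd7 and Txk in red. Most of these shifts turned positive with TCR beta scaling, as did the median of all genes tested. The KO survival libraries show no such blue column.

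**Figure D2:**
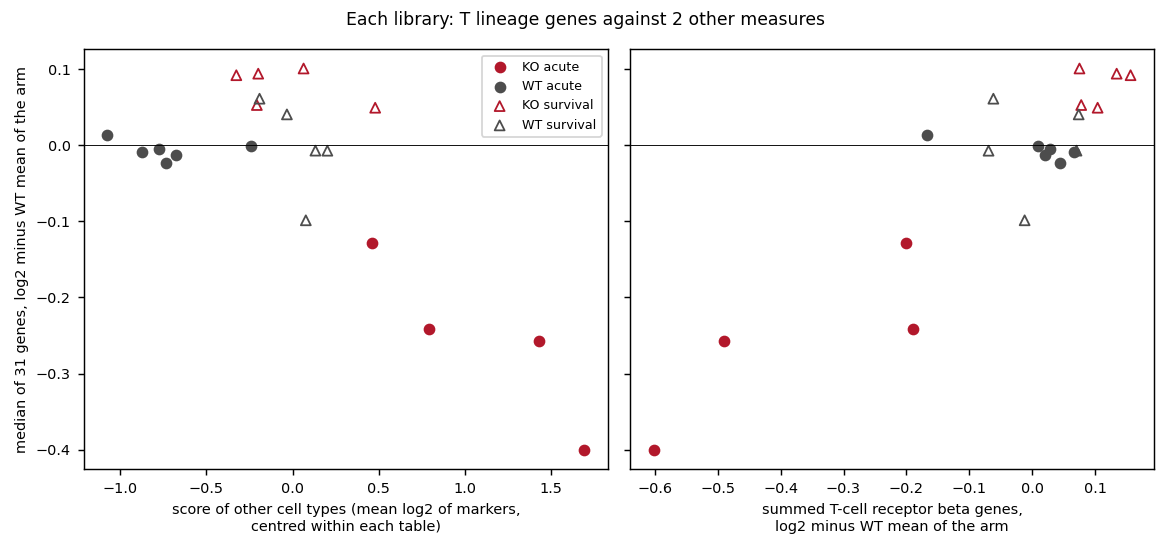
Median deviation of the 31 genes from the WT mean of the arm (y axis, log2) in each library, against the other-cell score centred within each table (left) and against the summed TCR beta genes relative to the WT mean of the arm (right, log2). Filled circles are acute and open triangles survival libraries; the 4 KO acute libraries lie between -0.40 and -0.13 on the y axis, apart from all others, and also apart on both x axes from the WT acute libraries.

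All 4 chains of the CD3 signaling complex fell in the acute arm on the authors' scaling, and none was called with TCR beta scaling, where Cd3d and Cd3g kept negative fold changes (-0.087 and -0.082) and Cd3e and Cd247 turned positive. Cd3d, the CD3 delta chain, had 8244, 5818, 6869 and 7145 normalized counts in KO acute libraries, against 8684 at the lowest, 9700.3 at the median and 10004 at the highest of the WT acute libraries. Every KO library was below every WT library, and the KO mean was 73.3% of WT (log2 fold change -0.46, SE 0.081, adjusted p = 0.0014 by limma). Cd3g, the CD3 gamma chain, had 13621, 9535, 11030.1 and 12776 normalized counts in KO acute libraries, against 14839.9 at the lowest, 16209.7 at the median and 16829 at the highest of the WT libraries. The groups did not overlap, and the KO mean was 73.7% of WT (log2 fold change -0.45, SE 0.087, adjusted p = 0.0023 by limma). Cd3e, the epsilon chain that pairs with both, had 9189, 7233, 8228 and 8452 normalized counts in KO acute libraries, against 9423 at the lowest, 9880.1 at the median and 10295 at the highest in WT. It fell less, to 83.7% of WT, again without overlap (log2 fold change -0.26, SE 0.060, adjusted p = 0.0068 by limma). Cd247, the zeta chain, had 3203, 2606, 2868 and 3078 normalized counts in KO acute libraries, against 3395 at the lowest, 3492 at the median and 3664 at the highest in WT. All KO libraries were below all WT libraries, at 83.9% of WT on average (log2 fold change -0.26, SE 0.056, adjusted p = 0.0049 by limma).

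Within the complex Cd3d and Cd3g had larger negative fold changes than Cd3e and Cd247, a difference that was not tested. The ratio of Cd3d to Cd3e was 0.897, 0.804, 0.835 and 0.845 in KO acute libraries, against 0.843 at the lowest, 0.993 at the median and 1.02 at the highest of the WT acute libraries. One WT library, WT acute 1, lay at the KO level, and the other 5 WT libraries lay above all KO libraries. The ratio of Cd247 to Cd3e averaged 0.355 ± 0.00802 in KO acute libraries (SD, n = 4) and 0.355 ± 0.0152 in WT acute libraries (SD, n = 6). In the survival arm the ratio of Cd3d to Cd3e averaged 0.957 ± 0.0470 in KO and 0.948 ± 0.0287 in WT libraries (SD, n = 5 each). These ratios were chosen after the values were seen and carry no test.

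Cd3d, Cd3g and Cd3e lie side by side on mouse chromosome 9, and their promoter windows are shown because these 3 genes fell together in the acute arm on the authors' scaling. Windows are RefSeq sequences of build GRCm38.p6, from 250 bases before to 50 after the start, 5′ to 3′ along the gene's strand. Capitals mark matches on either strand, none of them overlapping, to an E-box of E proteins (CAGGTG), an ETS (GGAAGT), a RUNX (TGTGGT), a TCF/LEF (CTTTGA) or a GATA-factor motif (letters AGATAA).
Cd3d (chr9:44981536-44981835, plus strand): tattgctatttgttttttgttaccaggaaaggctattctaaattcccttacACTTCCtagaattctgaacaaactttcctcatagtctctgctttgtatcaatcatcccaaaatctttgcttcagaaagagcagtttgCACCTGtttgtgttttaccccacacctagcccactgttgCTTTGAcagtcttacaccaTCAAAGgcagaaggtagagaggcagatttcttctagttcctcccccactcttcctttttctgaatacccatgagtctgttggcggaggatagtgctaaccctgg
Cd3g (chr9:44980382-44980681, minus strand): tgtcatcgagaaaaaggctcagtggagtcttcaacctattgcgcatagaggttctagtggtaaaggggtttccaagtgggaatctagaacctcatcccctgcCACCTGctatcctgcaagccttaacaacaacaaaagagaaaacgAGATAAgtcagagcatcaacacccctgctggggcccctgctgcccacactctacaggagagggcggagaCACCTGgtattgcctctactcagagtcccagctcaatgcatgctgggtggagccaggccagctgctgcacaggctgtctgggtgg
Cd3e (chr9:45009562-45009861, minus strand): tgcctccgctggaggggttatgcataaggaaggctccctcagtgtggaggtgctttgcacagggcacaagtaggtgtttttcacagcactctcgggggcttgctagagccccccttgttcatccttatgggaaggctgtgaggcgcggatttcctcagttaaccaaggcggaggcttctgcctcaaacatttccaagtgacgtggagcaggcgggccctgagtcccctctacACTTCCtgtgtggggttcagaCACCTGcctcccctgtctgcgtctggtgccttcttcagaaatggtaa
Cd3d and Cd3g run away from each other from starts 1355 bases apart, and Cd3e starts 27825 bases from Cd3d. The Cd3d window held 1 E-box match, 1 ETS match and 2 TCF/LEF matches, the Cd3g window 2 E-box matches and 1 GATA match and the Cd3e window 1 E-box match and 1 ETS match.

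Windows were used for 23 of the 31 genes, 40 windows in all, since some genes have several starts. Any window of these genes on chromosome 18 was left out, which was not done for the mouse windows set beside them. The ETS motif stood in 18 of the 40 windows (45%), against 23.8% of 32851 mouse promoter windows of the same length. The E-box stood in 14 (35%, against 20.2%), TCF/LEF in 9 (22.5%, against 16%), RUNX in 6 (15%, against 16.8%) and GATA in 5 (12.5%, against 11.2%). These counts of letters are a description and carry no test, and several windows can belong to one gene.

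Of the 4 proximal kinases 3 fell and Txk rose in the acute arm on the authors' scaling, while with TCR beta scaling only Txk was called among them, again higher. Lck, the Src-family kinase that phosphorylates the CD3 chains, had 25828, 18788, 21479 and 23996 normalized counts in KO acute libraries, against 28665 at the lowest, 29532 at the median and 30346 at the highest of the WT acute libraries. All KO libraries were below all WT libraries, and the KO mean was 76.3% of WT (log2 fold change -0.40, SE 0.074, adjusted p = 0.0018 by limma). Fyn, its relative with overlapping roles, had 3560.0, 2754, 2917 and 3169 normalized counts in KO acute libraries, against 3783 at the lowest, 3951 at the median and 4058 at the highest in WT. The groups did not overlap (79% of WT, log2 fold change -0.35, SE 0.064, adjusted p = 0.0018 by limma). Zap70, the kinase recruited to the phosphorylated chains, had 4746, 3988, 4432 and 4059 normalized counts in KO acute libraries, against 4801 at the lowest, 5185 at the median and 5549.7 at the highest in WT. KO library 1 came closest to the WT range without entering it (83.1% of WT, log2 fold change -0.27, SE 0.058, adjusted p = 0.0044 by limma).

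Txk, a TEC-family kinase of T and NK cells, went the other way. It had 253, 257, 299.8 and 295 normalized counts in KO acute libraries, against 159 at the lowest, 164 at the median and 206 at the highest of the WT acute libraries. Every KO library was above every WT library, including WT library 6, which lay apart from the other 5, and the KO mean was 162% of WT (log2 fold change 0.70, SE 0.10, adjusted p = 0.00043 by limma). Txk was also called higher with TCR beta scaling (1.06, adjusted p = 0.00013 by limma) and without KO libraries 2 and 3 (0.68, adjusted p = 0.0063 by limma). With the other-cell score as a covariate the fold change was 0.64 (adjusted p = 0.64 by limma). Summed NK-cell markers stood at 468, 1324, 1114 and 581 normalized counts in KO acute libraries 1 to 4. KO library 1 was the lowest in both Txk and NK-cell markers. KO library 3 was the highest in Txk and KO library 2 in NK-cell markers. The part of NK cells in the rise of Txk was not tested. The window before one of its 2 starts, the upstream one, is shown for comparison with the CD3 windows, with the same motifs in capitals.
Txk (chr5:72752728-72753027, minus strand): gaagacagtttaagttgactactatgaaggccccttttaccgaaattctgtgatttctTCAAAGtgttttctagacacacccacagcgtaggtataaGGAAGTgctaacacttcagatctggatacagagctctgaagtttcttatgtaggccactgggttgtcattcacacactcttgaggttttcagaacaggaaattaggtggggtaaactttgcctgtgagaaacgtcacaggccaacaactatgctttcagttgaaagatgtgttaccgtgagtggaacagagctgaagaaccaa
This window held 1 ETS match and 1 TCF/LEF match. The window of the other start (chr5:72736553-72736852), not shown, held 1 ETS match, 1 RUNX match and 1 GATA match.

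Among the adaptors and regulators Lat alone was called lower in the acute arm on the authors' scaling. With TCR beta scaling Lat turned positive and Lcp2 was called higher, as were 6991 of all 16363 genes tested. Lat, the membrane scaffold that ZAP70 phosphorylates, had 9315, 7065, 7846 and 7876 normalized counts in KO acute libraries, against 9798 at the lowest, 10247 at the median and 10382 at the highest of the WT acute libraries. KO and WT did not overlap, and the KO mean was 79.1% of WT (log2 fold change -0.34, SE 0.064, adjusted p = 0.0019 by limma). Themis, which tunes TCR signals in developing thymocytes, had 3905, 2968, 3923 and 4315 normalized counts in KO acute libraries, against 3959.6 at the lowest, 4475 at the median and 4830.2 at the highest in WT. It missed the threshold, and KO library 4 lay inside the WT range (log2 fold change -0.24, SE 0.094, adjusted p = 0.072 by limma), while without KO library 4 it was called lower (adjusted p = 0.029). Lcp2 (SLP-76, an adaptor of T cells and of other blood cells) had a fold change of 0.024 and a 95% confidence interval of -0.099 to 0.15. Ubash3a, a phosphatase-family regulator that restrains TCR signals, had a fold change of -0.10 with an interval of -0.29 to 0.093.

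Of the 9 surface proteins 6 fell and Cd7 rose in the acute arm on the authors' scaling, with Il7r and Cd7 called the same way under TCR beta scaling and Cd2, Cd27, Cd28, Cd6 and Thy1 positive there. Il7r, the alpha chain of the interleukin-7 receptor, fell by more than any other of the 31 genes on the authors' scaling. It had 1237, 959.8, 921 and 1239 normalized counts in KO acute libraries, against 1511 at the lowest, 1663 at the median and 2010.0 at the highest of the WT acute libraries. No KO library reached the lowest WT library, and the KO mean was 63% of WT (log2 fold change -0.67, SE 0.11, adjusted p = 0.00090 by limma). With TCR beta scaling its fold change was -0.30 (adjusted p = 0.019 by limma), and without KO libraries 2 and 3 it was -0.47 (adjusted p = 0.016 by limma). With the other-cell score as a covariate it was -0.40 (adjusted p = 0.82 by limma). Its promoter window is shown as that of the gene with the largest fall, with the same motifs in capitals.
Il7r (chr15:9529827-9530126, minus strand): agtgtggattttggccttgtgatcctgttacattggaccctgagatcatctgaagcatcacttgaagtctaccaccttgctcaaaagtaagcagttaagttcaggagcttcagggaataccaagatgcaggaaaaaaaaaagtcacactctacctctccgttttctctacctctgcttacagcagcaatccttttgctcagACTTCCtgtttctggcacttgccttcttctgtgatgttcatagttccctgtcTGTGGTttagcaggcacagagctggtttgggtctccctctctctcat
It held 1 ETS match and 1 RUNX match.

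Cd7, an immunoglobulin-superfamily protein of T and NK cells, lay near the filter of 10 normalized counts in WT spleens and rose in the acute arm. It had 55.7, 130.1, 119 and 74.1 normalized counts in KO acute libraries, against 8.50 at the lowest, 13.9 at the median and 23.3 at the highest of the WT acute libraries. The KO libraries were all above the WT libraries (log2 fold change 2.63, SE 0.32, adjusted p = 0.00014 by limma). KO libraries 2 and 3 had the highest Cd7, and the order of the 4 KO libraries by Cd7 was the same as by summed NK-cell markers and by the other-cell score. Summed neutrophil, monocyte and macrophage, B-cell and dendritic-cell markers gave the same order too. Plasma-cell, erythroid and megakaryocyte markers gave other orders. With the other-cell score as a covariate the fold change of Cd7 was 0.64 (adjusted p = 0.88 by limma), and the part of NK cells or other cells in the rise was not tested.

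Cd28, the receptor that co-stimulates T cells by binding CD80 and CD86, had 3207, 2542, 2663 and 3181 normalized counts in KO acute libraries, against 3410.3 at the lowest, 3652 at the median and 3885 at the highest of the WT acute libraries. All KO libraries were lower, at 79.3% of WT on average (log2 fold change -0.34, SE 0.073, adjusted p = 0.0044 by limma), and the call was lost without KO libraries 2 and 3 (adjusted p = 0.067). Cd2, an adhesion receptor that binds CD48 in mice, had 4516, 3669.5, 4023 and 4306 normalized counts in KO acute libraries, against 4827 at the lowest, 5136 at the median and 5670.0 at the highest in WT. The groups did not overlap (79.4% of WT, log2 fold change -0.34, SE 0.063, adjusted p = 0.0019 by limma). Cd27, a co-stimulatory receptor of the TNF receptor family, had 3843, 3342, 3442 and 3443 normalized counts in KO acute libraries, against 3971 at the lowest, 4382 at the median and 4511 at the highest in WT, without overlap (log2 fold change -0.30, SE 0.051, adjusted p = 0.0012 by limma). Thy1, a lipid-anchored protein of mouse T cells, had 29941, 23141, 26378 and 28064 normalized counts in KO acute libraries, against 32435 at the lowest, 33088 at the median and 34031 at the highest in WT, where the 6 libraries lay close together and above all KO libraries (log2 fold change -0.31, SE 0.063, adjusted p = 0.0031 by limma). Cd6, an inhibitory scavenger-type receptor, was called lower although KO library 3 overlapped the WT range (log2 fold change -0.22, SE 0.065, adjusted p = 0.025 by limma), and its call was lost without KO library 2 or KO library 4. Its relative Cd5 had a fold change of -0.10 (95% interval -0.26 to 0.056), and Cd1d1, which presents lipid antigens, one of -0.044 (95% interval -0.23 to 0.14). Neither passed the test, although Cd1d1 was called higher with TCR beta scaling, as were 6991 of all 16363 genes tested.

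All 10 transcription factors had negative fold changes in the acute arm and 7 fell on the authors' scaling. With TCR beta scaling Tcf12 alone kept a negative value among those 7. Ikzf1 and Runx1 were called higher there, as were 6991 of all 16363 genes tested. Tcf12, which encodes the E protein HEB, had 11099, 7850.3, 9134 and 10988 normalized counts in KO acute libraries, against 11816 at the lowest, 12984 at the median and 13764 at the highest of the WT acute libraries. All KO libraries were lower than all WT libraries, and the KO mean was 75.8% of WT (log2 fold change -0.41, SE 0.089, adjusted p = 0.0044 by limma). Tcf7, which encodes TCF1, had 52189.6, 37243, 42881 and 45193 normalized counts in KO acute libraries, against 52217 at the lowest, 53027 at the median and 59525 at the highest in WT. KO library 1 fell just short of the lowest WT library, so the groups did not overlap (82% of WT, log2 fold change -0.30, SE 0.080, adjusted p = 0.015 by limma). Bcl11b, needed for T-lineage commitment, had 7196, 5643, 6808 and 6557 normalized counts in KO acute libraries, against 7333 at the lowest, 7623 at the median and 10118 at the highest in WT, the highest being WT library 1, far above the other 5. The groups did not overlap (log2 fold change -0.29, SE 0.094, adjusted p = 0.033 by limma), and the call was lost without any one of KO libraries 2, 3 or 4 or WT libraries 2 or 5.

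Lef1, the relative of TCF1 that binds the same sites, had 12193, 9335, 9851 and 10357 normalized counts in KO acute libraries, against 11812 at the lowest, 12443 at the median and 12722 at the highest of the WT acute libraries, so KO library 1 overlapped the WT range (log2 fold change -0.25, SE 0.066, adjusted p = 0.014 by limma). Satb1, an organizer of chromatin in thymocytes, had 14116, 10749, 11393 and 11088 normalized counts in KO acute libraries, against 13127 at the lowest, 13465 at the median and 14294 at the highest in WT, with KO library 1 again inside the WT range (log2 fold change -0.21, SE 0.069, adjusted p = 0.036 by limma). Ets1, an ETS-family factor of lymphocytes, had 23329, 19342, 20892 and 22883 normalized counts in KO acute libraries, against 23419 at the lowest, 24272 at the median and 25279 at the highest in WT, a narrow gap without overlap (log2 fold change -0.18, SE 0.055, adjusted p = 0.030 by limma). Tox, an HMG-box factor of thymocytes, had 1763, 1494, 1596 and 1733 normalized counts in KO acute libraries, against 1826 at the lowest, 1880.2 at the median and 1918 at the highest in WT, also without overlap (log2 fold change -0.19, SE 0.052, adjusted p = 0.016 by limma). The calls of Satb1, Ets1 and Tox were each lost when KO library 2 or KO library 3 was left out. Satb1 was also lost without KO library 4 or any one of WT libraries 1, 2, 4, 5 and 6, and Ets1 without any one of WT libraries 4, 5 and 6. Gata3, Ikzf1 (Ikaros) and Runx1 did not pass the test, with fold changes of -0.20 (95% interval -0.43 to 0.029), -0.070 (-0.16 to 0.015) and -0.0038 (-0.19 to 0.18), and Gata3 was called lower without KO library 1. Ikzf1 had 17439, 16450, 16815 and 16217 normalized counts in KO acute libraries. Its WT acute libraries had 16764 at the lowest, 17684 at the median and 18069 at the highest, with overlap. Ikzf1 and Runx1, like Lcp2, also act in blood cells outside the T lineage, and whether this bears on their values was not tested.

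In the survival arm none of the 31 genes was called by limma under any alternative tried, and 8 reached an unadjusted p under 0.05. Of all 16136 genes tested in that arm 0.0124% were called (0.0062% higher and 0.0062% lower), and 8.74% had an unadjusted p under 0.05. Fold changes were positive for 23 of the 31 genes and negative for 8, with a median of 0.095 beside 0.0087 for all genes tested. With TCR beta scaling 14 were positive and 17 negative, with a median of -0.014. The 8 genes at an unadjusted p under 0.05 were Cd28, Ikzf1, Lef1, Cd27, Lcp2, Cd1d1, Gata3 and Tox, and all were higher in KO on the authors' scaling. Only Cd28 and Ikzf1 had every KO library above every WT library, against 1.21% of all genes tested, and none of the 31 had every KO library below, against 0.793%. The other-cell score overlapped between the survival groups, with values of -0.326 to 0.480 in KO and -0.192 to 0.202 in WT libraries and 0 of 49 tested markers called by limma (6 at an unadjusted p under 0.05). Of the 8 B-cell markers 6 had negative fold changes there, and for 1 of them, Cd79b, singled out after its values were seen, every KO library lay below every WT library (log2 fold change -0.69, adjusted p = 0.24 by limma). The summed TCR beta genes (27 genes) in KO survival libraries averaged 108% of WT, a log2 difference of 0.11.

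Cd28 had 4367, 4617, 3927, 4195 and 4488 normalized counts in KO survival libraries, against 3789, 3241, 3744, 3519.9 and 3193 in WT survival libraries. The lowest KO library was above the highest WT library (123% of WT, log2 fold change 0.31, SE 0.065, adjusted p = 0.19 by limma). Ikzf1 had 22324, 24298, 20399, 21392 and 20208 normalized counts in KO survival libraries, against 17794, 18893, 17738, 19312 and 19062 in WT, also without overlap (117% of WT, log2 fold change 0.22, SE 0.061, adjusted p = 0.27 by limma). Lef1 had 15180.4, 15262, 12158, 12846 and 14146 normalized counts in KO survival libraries, against 12180.0, 9865, 11893, 12418 and 12156 in WT. WT library 2 was far below the other 4, and 1 KO library (KO 3) lay inside the WT range (log2 fold change 0.25, SE 0.081, adjusted p = 0.35 by limma). Tox had 2258, 2323, 1739, 1837 and 1848 normalized counts in KO survival libraries, against 1815, 1089.7, 1942, 1482 and 1833 in WT. KO libraries 1 and 2 were the highest and WT library 2 the lowest, with overlap between the groups (log2 fold change 0.31, SE 0.14, adjusted p = 0.56 by limma). WT survival library 2 was the lowest WT library for 16 of the 31 genes. Without it the fold changes were 0.28 for Cd28, 0.23 for Ikzf1, 0.19 for Lef1 and 0.18 for Tox, with adjusted p of 0.39, 0.45, 0.56 and 0.73 by limma.

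The CD3 chains lay close to WT in the survival arm. Cd3d had 9729, 9331, 9474, 9564 and 9315 normalized counts in KO survival libraries, against 9586, 9368, 9584, 8701 and 9612 in WT, with a fold change of 0.018 and a 95% interval of -0.083 to 0.12. The KO libraries lay within the WT range except KO library 1, which was above it, and WT library 4 was the lowest of the 10. Cd3e had 9620.4, 9706, 9542, 10371 and 10364 in KO and 10448, 9532, 10364, 8954 and 10212 in WT (interval -0.12 to 0.13), and Cd3g had 14746, 14129, 14432, 15232 and 15104 in KO and 16160.0, 14516, 15341, 13917 and 15509 in WT (interval -0.15 to 0.082). For both, all 5 KO libraries fell inside the WT range. Cd247 had 3614, 3608, 3604, 3605 and 3592 normalized counts in KO survival libraries, against 3326, 3366, 3428, 3361 and 3608 in WT (interval -0.018 to 0.17). The KO libraries differed from each other by 7.92 (SD), and WT library 5 reached their level. Each acute fold change of a CD3 chain lay below the interval of its survival fold change.

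The kinases and Lat overlapped between the survival groups. Lck had 26869, 25679.9, 26440.5, 26869 and 28093 normalized counts in KO survival libraries, against 29705, 26866, 27652, 27972 and 32559.5 in WT, where libraries 1 and 5 stood above all KO libraries (fold change -0.11, 95% interval -0.24 to 0.023). Fyn had 3922, 4201, 3524, 3943 and 4393 in KO and 4002, 3294, 3656, 3939.5 and 3977 in WT (interval -0.073 to 0.24). Txk had 213, 178, 205, 216 and 185 in KO and 166, 185, 160.1, 205 and 161 in WT, with overlap (fold change 0.19, interval -0.048 to 0.42). Zap70 had a fold change of 0.022 (interval -0.16 to 0.21). Lat had 9694, 8940.4, 9239.8, 9983 and 10205 in KO and 9561, 9246, 9363, 9606 and 11133 in WT, where library 5 stood alone above the rest (interval -0.16 to 0.11). Themis had 4636, 4735, 4872, 4601 and 5109 in KO and 4499, 4450.2, 4505, 4675 and 4072 in WT, with 1 WT library inside the KO range (fold change 0.11, interval -0.0035 to 0.22).

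Among the surface proteins, Il7r had 1804, 2325, 2322, 2200.1 and 1592 normalized counts in KO survival libraries, against 2269, 1870.1, 1820.2, 1692 and 1768 in WT. KO libraries lay both above and below the WT range, and the interval of the fold change was -0.13 to 0.35. Cd7 had 22.1, 10, 19.2, 1.92 and 17.4 in KO and 14, 16.8, 7.70, 26.9 and 11.7 in WT, low in both groups and spread widely, so that its interval ran from -1.45 to 0.83. Cd2 had 5649, 5442, 4779, 4749 and 4999 in KO and 5039, 4219, 4722, 4620.3 and 4893 in WT (fold change 0.12, interval -0.019 to 0.27). Cd27 had 4316, 4668, 4232, 4323 and 4785 in KO and 4061, 3657, 3918, 4314 and 4163 in WT. The lowest KO library of Cd27 lay below the highest WT library, WT 4 (log2 fold change 0.15, SE 0.058, adjusted p = 0.46 by limma). Thy1 had 33306, 32796, 30224, 33229 and 34083 in KO and 33272, 30132, 32224, 33269.9 and 35943 in WT, with the KO libraries inside the WT range (interval -0.14 to 0.12). Cd5, Cd6 and Cd1d1 had fold changes of 0.17, 0.095 and 0.21.

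Among the transcription factors, Tcf7 had 52381, 51705, 49916, 47820.2 and 50521 normalized counts in KO survival libraries, against 51593, 35394, 47673, 48576 and 52710.1 in WT. All KO libraries lay inside the WT range, which WT library 2 stretched downward (fold change 0.11, interval -0.097 to 0.32). Tcf12 had 13999, 13539, 14174, 14275 and 14168 in KO and 13966, 13456, 13858, 12590.4 and 13908 in WT, with 4 KO libraries above every WT library (interval -0.053 to 0.15). Satb1 had 13031, 14817, 14646, 14984 and 15753 in KO and 13156, 12751, 13144, 14375 and 14966 in WT (interval -0.041 to 0.24), and Ets1 had 27105, 26328, 25637, 26846 and 26473 in KO and 25362, 24588, 25713, 24938 and 25796 in WT (interval -0.033 to 0.17). In both the groups overlapped, with the KO mean the higher. Bcl11b and Runx1 had negative fold changes (-0.15 and -0.10), Gata3 a positive one (0.21), and none passed the test.

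**Figure D3:**
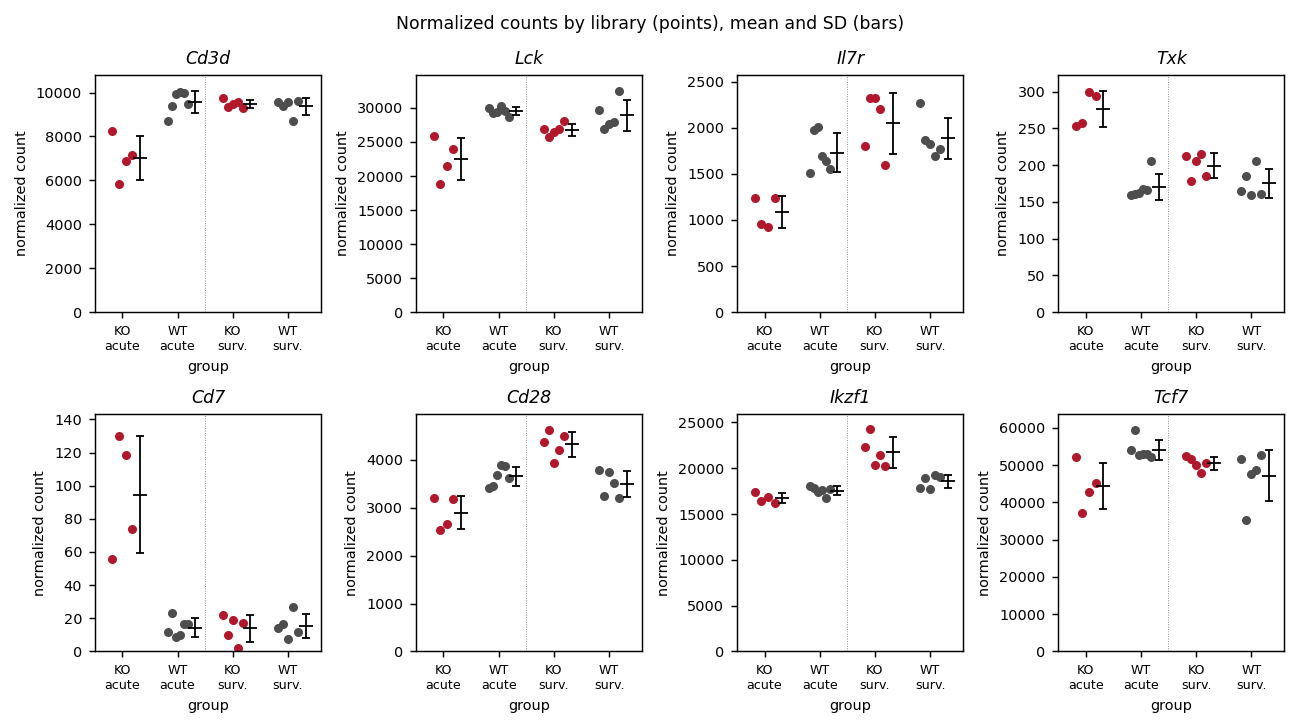
Normalized counts (y axis) of 8 of the genes in each library, for KO acute, WT acute, KO survival and WT survival from left to right in each panel, with points for libraries and bars for the mean and SD. Cd3d, Lck and Il7r lie lower and Txk and Cd7 higher in KO acute than in WT acute libraries on the authors' scaling (the Cd3d and Lck calls are lost with TCR beta scaling), and Cd28 and Ikzf1 lie higher in KO than in WT survival libraries without overlap.

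The KO against WT fold changes of the arms were compared directly as the survival fold change minus the acute fold change. By limma 20 of the 31 genes were called higher (survival above acute) and 2 lower, Cd7 and Txk, on the authors' scaling, whereas with TCR beta scaling 0 were called higher, 5 lower and 27 of 31 differences were negative. With TCR beta scaling 57 of 15673 genes tested were called higher and 7254 lower. On the authors' scaling 9.39% of them were called higher and 10.9% lower. At an unadjusted p under 0.05 stood 25 of the 31 genes, against 33.4% of all genes tested, and in the acute arm alone 24 of the 31, against 41.6%. The median difference was 0.31 (log2) over the 31 genes and 0.032 over all genes, and with TCR beta scaling -0.17 and -0.44. The arms differ in time since treatment, in leukemia burden at treatment and in endpoint, and the tables were scaled apart, so what sets the difference was not tested.

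The largest positive differences on the authors' scaling were those of Il7r (0.78, SE 0.17, adjusted p = 0.0023 by limma) and Cd28 (0.65, SE 0.099, adjusted p = 0.00013 by limma). Cd28 combines a fall in the acute arm with a positive, uncalled fold change in the survival arm. All 4 CD3 chains were called, with differences from 0.26 for Cd3e to 0.48 for Cd3d. Themis and Ikzf1, which were called in neither arm, were called for the difference (0.35, adjusted p = 0.029, and 0.30, adjusted p = 0.0050, by limma). The difference of Cd7 was -2.94 (SE 0.66, adjusted p = 0.0033 by limma) and that of Txk -0.51 (SE 0.14, adjusted p = 0.015 by limma). Zap70, Lcp2, Ubash3a, Cd5, Cd6, Cd1d1, Bcl11b, Gata3 and Runx1 were not called, and the differences of Zap70 and Gata3 stood just above the threshold (adjusted p = 0.061 and 0.061 by limma). The calls of Cd3e, Lck, Themis, Tcf7, Satb1 and Tox depended on 1 library in at least 1 case each. Of 20 fits that each left out 1 library, 18 kept the call for Cd3e and 18 for Themis. For Satb1 16 kept it, for Tcf7 15, for Tox 12 and for Lck 10. Leaving out KO acute library 2 ended all 6 of these calls.

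**Figure D4:**
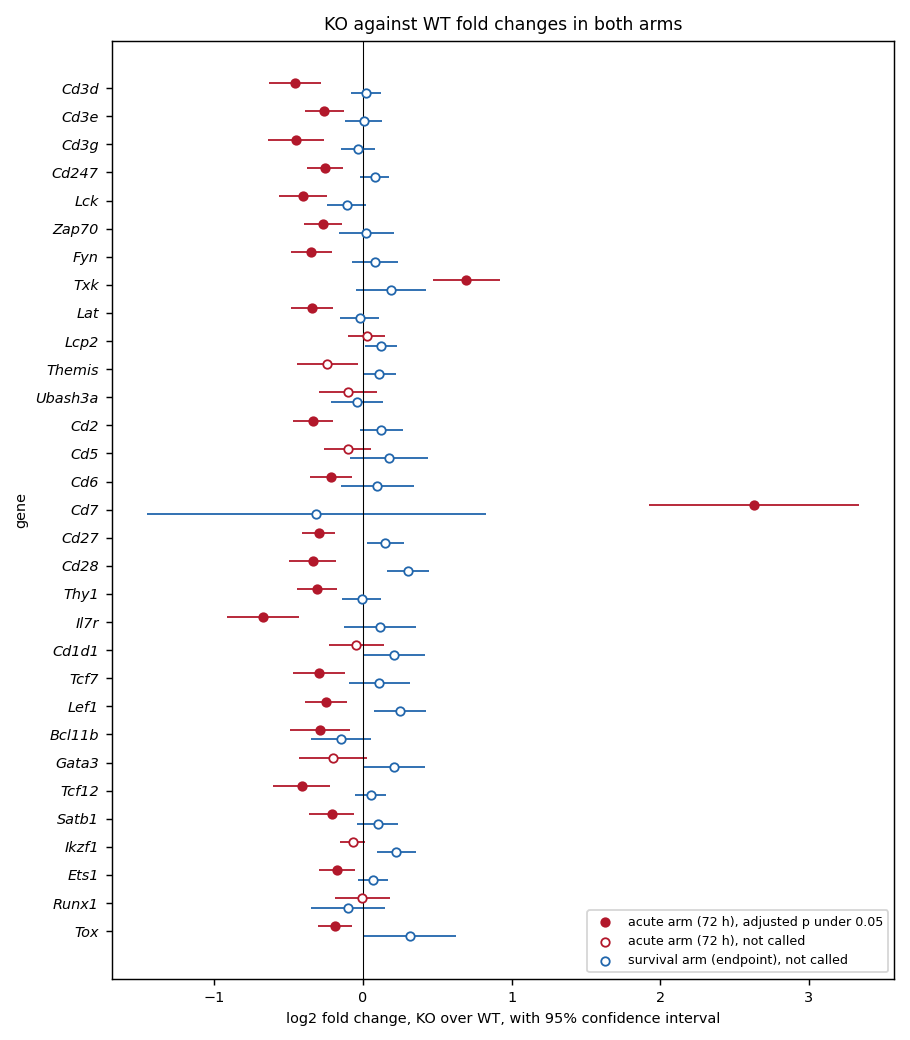
KO over WT log2 fold change (x axis) with its 95% confidence interval for each of the 31 genes (down the page, by role), in the acute arm (red) and in the survival arm (blue), filled where the adjusted p is under 0.05. Of the acute values 21 are filled left of 0 and 2 (Txk and Cd7) right of it on the authors' scaling, and no survival value is filled. With TCR beta scaling 26 acute values were positive instead, and the median of all genes tested was 0.34.

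Other genes of TCR signaling, 36 in a list that held none of the 31, moved in both directions in the acute arm. By limma 7 were called higher and 8 lower, where 16.7% and 14.7% of all genes tested were, and their median log2 fold change was 0.0038. With TCR beta scaling 25 were called higher and 0 lower, beside 6991 higher and 95 lower of all 16363 genes tested. The largest rises were Ubash3b, Tec and Malt1. Ubash3b, a phosphatase that restrains TCR signals, had 116, 349, 226 and 161 normalized counts in KO acute libraries, against 33.9 at the lowest, 50.7 at the median and 85.6 at the highest of the WT acute libraries (log2 fold change 1.86, SE 0.31, adjusted p = 0.00090 by limma). The groups did not overlap, and the KO libraries stood in the same order as by the other-cell score. Tec, a kinase of the same family as Txk, had 168, 206, 140.0 and 168 in KO acute libraries, against 93.6 at the lowest, 109 at the median and 160.4 at the highest in WT, with overlap (log2 fold change 0.57, SE 0.16, adjusted p = 0.019 by limma). Malt1, the protease that links the TCR to NF-kappaB, had 658, 803, 773 and 698 in KO acute libraries, against 508 at the lowest, 581 at the median and 609.9 at the highest in WT, without overlap (log2 fold change 0.35, SE 0.075, adjusted p = 0.0043 by limma).

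The largest falls among these other genes were Rhoh, Sla2 and Sh2d1a on the authors' scaling, and none of them was called lower with TCR beta scaling. Rhoh, a GTPase-family protein needed for ZAP70 activation, had 3459, 2787, 3066 and 3526 normalized counts in KO acute libraries, against 3810.4 at the lowest, 4204 at the median and 4762 at the highest of the WT acute libraries, without overlap (log2 fold change -0.40, SE 0.079, adjusted p = 0.0025 by limma). Sla2, an adaptor that dampens TCR signals, had 1313, 1030.0, 1288 and 1430.0 in KO acute libraries, against 1383 at the lowest, 1569.9 at the median and 1705 at the highest in WT (log2 fold change -0.32, SE 0.089, adjusted p = 0.017 by limma). Sh2d1a, the adaptor SAP of the SLAM receptors, had 2657, 1924, 2041 and 2427 in KO acute libraries, against 2317 at the lowest, 2837 at the median and 2978 at the highest in WT (log2 fold change -0.30, SE 0.095, adjusted p = 0.033 by limma). KO and WT overlapped for Sla2 and Sh2d1a, and KO library 2 was the lowest for all 3. In the survival arm 0 of the 36 were called by limma, 3 reached an unadjusted p under 0.05, and the median was 0.052. For the difference between arms 8 were called higher, led by Trat1, a TCR-associated adaptor (0.61, adjusted p = 0.0093 by limma), and 2 lower, Ubash3b (-1.91, adjusted p = 0.00086 by limma) and Nfatc1, a factor activated by calcium signals (-0.27, adjusted p = 0.040 by limma).

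The spread between libraries differed between the groups. The median coefficient of variation of the 31 genes was 10.7% over the KO acute libraries and 5.03% over the WT acute libraries, and 6.76% over the KO survival and 7.89% over the WT survival libraries. Summed over all genes, a library of the acute arm held 19432235 to 20731983 normalized counts, and one of the survival arm held 19998354 to 21623571. These are scaled totals and not depths.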

How the data were processed

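RNA of leukemic spleens in 20 libraries (4 KO acute, 6 WT acute, 5 KO survival, 5 WT survival) was sequenced as strand-specific polyadenylated libraries. The authors deposited 2 tables of DESeq-normalized counts, a signal of non-whole values scaled within each table, made with kallisto 0.46.0 against GRCm39 per the submitters' processing notes. How transcripts were summed to genes, which annotation served and whether values were filtered was not given in the sources used here.

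Values were used as log2(normalized count + 1). Genes at 10 or more normalized counts in at least 4 (acute) or 5 (survival) libraries were tested with limma 3.58.1 in R 4.3.3 (lmFit, eBayes with a trend), on group means without covariate, with two-sided p-values adjusted by Benjamini-Hochberg over all genes tested. The survival minus acute contrast used all 20 libraries. The fit was tested on simulated data with the spread of WT libraries in both groups. The wider spread of the KO acute libraries was thus not covered. The members, lists, motifs and tests were chosen with earlier results of these data known. Per-library values are given in each arm for called genes (in roles of more than 4 genes the 3 largest rises and falls) and for genes called in the difference. Of the other TCR genes the 3 largest called rises and falls are named.

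Between 56 and 82% of low values lay within 0.1 of a whole multiple of a library's most frequent step, so whole reads were not recovered and count tests were not run. Taken as 1 read, the step puts depth at 16.3 to 24.1 M reads, a rough figure. No pair of libraries held identical values (45 pairs in each table). Alternatives were other pseudocounts, filters, scalings, weights, a covariate, a replicate block and left-out libraries. Promoter windows are RefSeq sequences of GRCm38.p6, a build other than that of the tables. Python 3.11.15, numpy 2.4.6, pandas 2.3.3 and matplotlib 3.10.9 were used for summaries and plots.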

Additional observations from a re-analysis of the deposited data

Results flagged for a closer look

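In 7 of 124 groups of libraries (31 genes in 4 groups), 1 library stood apart from the rest by Dixon's criterion, and chance gives about 1 in 20. Txk was 206 normalized counts in WT acute library 6, with the other 5 at 159 to 167. Tcf7 was 59525 in WT acute library 2, with the others at 52217 to 54091. WT acute library 1 had 10118 for Bcl11b, with the others at 7333 to 8132, and 4057 for Runx1, with the others at 3184 to 3466. Cd3d was 8701 in WT survival library 4, with the others at 9368 to 9612. Lat was 11133 in WT survival library 5, with the others at 9246 to 9606. Lef1 was 9865 in WT survival library 2, with the others at 11893 to 12418. All 7 were WT libraries.

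The KO against WT fold change differed between the arms for 22 of the 31 genes (limma, adjusted p under 0.05, survival minus acute, log2, authors' scaling). The differences were 0.48 for Cd3d, 0.26 for Cd3e, 0.42 for Cd3g, 0.33 for Cd247, 0.29 for Lck, 0.43 for Fyn, -0.51 for Txk, 0.32 for Lat, 0.35 for Themis, 0.46 for Cd2, -2.94 for Cd7, 0.45 for Cd27, 0.65 for Cd28, 0.30 for Thy1, 0.78 for Il7r, 0.41 for Tcf7, 0.50 for Lef1, 0.46 for Tcf12, 0.31 for Satb1, 0.30 for Ikzf1, 0.24 for Ets1 and 0.50 for Tox. With TCR beta scaling 5 genes were called, all lower (Cd7, Ets1, Lcp2, Runx1 and Txk), beside 7254 lower of all 15673 genes tested. With the other-cell score as a covariate 0 of the 31 genes were called by limma, beside 1 higher and 0 lower of all 15673 genes tested.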

How the results depend on the processing

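Pseudocounts of 0.5 and 5, no filter, a filter at 50 and robust variance estimates gave the same 23 acute calls among the 31 genes, and array weights and quantile normalization shared 22 of them. No alternative called any of the 31 genes in the survival arm. For the difference between arms a filter at 50 left Cd7 untested and Txk the only gene called lower. Quantile normalization left Cd7 the only gene called lower for that difference, and Txk lost its call. With no filter 1 of the wider TCR genes was called lower for the difference between arms.

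Scaling to TCR beta genes gave 6 genes higher and 1 lower in the acute arm, 0 higher and 5 lower for the difference, and for the wider TCR genes 25 higher and 0 lower in the acute arm and 0 higher and 21 lower for the difference. It moved the split of all genes in the acute arm to 6991 higher and 95 lower, against 2731 and 2409 on the authors' scaling, and quantile normalization gave 2318 and 4145. For the difference TCR beta scaling gave 57 higher and 7254 lower of all genes, against 1471 and 1702 on the authors' scaling. Acly in the acute arm was -0.087 (adjusted p = 0.65 by limma). Among genes called on the authors' scaling or on this one, signs turned for 19 acute fold changes (Bcl11b 0.080, Cd1d1 0.32, Cd2 0.035, Cd247 0.11, Cd27 0.072, Cd28 0.030, Cd3e 0.11, Cd6 0.15, Ets1 0.19, Fyn 0.023, Ikzf1 0.30, Lat 0.025, Lef1 0.12, Runx1 0.37, Satb1 0.16, Tcf7 0.075, Thy1 0.060, Tox 0.18 and Zap70 0.10) and 17 differences (Cd2 -0.020, Cd247 -0.15, Cd27 -0.030, Cd3d -0.0040, Cd3e -0.21, Cd3g -0.061, Ets1 -0.24, Fyn -0.050, Ikzf1 -0.18, Lat -0.16, Lck -0.19, Lcp2 -0.38, Satb1 -0.17, Tcf12 -0.017, Tcf7 -0.074, Themis -0.13 and Thy1 -0.18). Every library was divided by its summed TCR beta genes, which were lower in KO than in WT acute libraries (log2 difference -0.37). In KO survival libraries that sum was higher than in WT (log2 difference 0.11), and both shifts enter the difference between arms.

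With the other-cell score as a covariate, 0 of the 31 genes, 0 of the wider genes and 0 of the markers were called for the acute arm or the difference by limma, and Acly was -0.78 (adjusted p = 0.41) in the acute arm and -0.45 (adjusted p = 0.77) for the difference. Of all genes tested, 0 of 16363 were called in the acute arm, and 1 higher and 0 lower of 15673 for the difference. The score did not overlap between the acute groups, which enter both fits. Among genes called without the covariate, signs turned for 13 acute fold changes (Bcl11b 0.097, Cd247 0.039, Cd28 0.081, Cd3e 0.11, Ets1 0.15, Fyn 0.045, Lck 0.079, Lef1 0.14, Satb1 0.14, Tcf12 0.20, Tcf7 0.049, Thy1 0.037 and Tox 0.087) and 8 differences (Cd3e -0.11, Ets1 -0.033, Fyn -0.040, Lat -0.030, Lck -0.15, Satb1 -0.037, Tcf12 -0.021 and Thy1 -0.077), and the cause was not tested.

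Without KO acute libraries 2 and 3, 11 genes were lower in the acute arm, with 1 wider TCR gene higher, 1 lower and 24 markers higher. Of all 16363 genes tested 723 were lower and 1414 higher there. For the difference 8 genes were higher and 0 lower, with 1 wider gene higher, 1 lower and 16 markers lower, and fewer libraries were fitted. Of all 15673 genes tested for it, 383 were higher and 879 lower. Leaving out each library in turn gave 16 to 22 genes lower in the acute arm and 14 to 22 higher for the difference. Of all genes it gave 1535 to 2528 lower in the acute arm and 876 to 1689 higher for the difference. For the wider genes it gave 3 to 8 higher and 5 to 8 lower in the acute arm, and 3 to 9 higher and 1 to 3 lower for the difference.

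Deviations of same-numbered libraries had correlations of -0.066 to 0.14. No other pairs served as a reference, so a pairing by number can be neither shown nor excluded. With the replicate number as a replicate block, 17 of the 31 genes were lower and 2 higher in the acute arm, and 16 higher and 2 lower for the difference. Of all genes 1186 were lower and 2108 higher in the acute arm, and 959 higher and 1404 lower for the difference. For the wider genes the block gave 3 higher and 3 lower in the acute arm and 5 higher and 1 lower for the difference. Depth is only roughly known, which limits statements on Cd7.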
